A study of Mus musculus with 8 samples.

Results

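8 genes of growth factor signaling in hepatocytes were followed in livers that differ by RORα genotype and diet: the ErbB receptors *Egfr*, *Erbb2* and *Erbb3*, the EGFR inhibitor *Errfi1*, the HGF receptor *Met*, the FGF receptor *Fgfr4* with its co-receptor *Klb*, and the LIF receptor *Lifr*. They were chosen by gene symbol as 8 of the 38283 genes in the table, with earlier results of these libraries known, so that the values below describe these genes and their tests are no independent support for the choice. 7 of the 8 passed the expression filter (FPKM above 1 in at least 1 library) and were among the 11634 genes tested. *Erbb2* did not pass it. FPKM is the number of fragments of a gene scaled by transcript length and by mapped fragments, so that levels of different genes can be set side by side.

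The livers came from C57BL/6 mice of 4 groups. RORα f/f mice carried loxP sites around exons 4 and 5 of *Rora*, the gene of a nuclear receptor that controls lipid and circadian genes. RORα LKO mice were their littermates with the same floxed alleles and Cre recombinase under the albumin promoter (Alb-Cre), which is active in hepatocytes. Whether other liver cells kept *Rora* was not measured here. Starting at an age of 8 weeks, mice of both genotypes received a control diet (CD) or a high-fat diet (HFD), which lasted 10 weeks. There were 2 libraries per group. RNA from 2 mice went into every library, so that an error given with n = 2 is the spread between pools.

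*Rora* itself had 8.85 and 8.59 FPKM in the CD-fed f/f libraries, 7.96 and 8.18 in the CD-fed LKO libraries, 7.56 and 7.86 in the HFD-fed f/f libraries, and 7.30 and 8.02 in the HFD-fed LKO libraries. The paper reports depletion of RORα mRNA and protein in livers and primary hepatocytes of LKO mice. The gene-level FPKM of *Rora* includes exons outside the deleted ones and overlapped between the genotypes on HFD, so it does not check the labels. On CD both LKO libraries were below both f/f libraries, as for 22.6% of tested genes. The log2 fold change there was −0.10 (adjusted p = 0.613 by limma). Groups are therefore named by their labels, and every direction between genotypes below rests on them. Of the hepatocyte markers, *Alb* was listed at 0 FPKM in 4 libraries (1 CD-fed LKO, 1 HFD-fed f/f and both HFD-fed LKO libraries) and at 29900 to 30900 in the other 4. The summed FPKM of the other hepatocyte markers was 15600 to 15800 in the CD-fed f/f and 15600 to 16900 in the CD-fed LKO libraries. On HFD this sum was 14300 to 14400 in the f/f and 13200 to 14200 in the LKO libraries, below every CD library. It is a sum of FPKM before the normalization used in the tests, and abundant markers weigh most in it. After normalization, the median log2 fold change on HFD of the 10 markers, *Alb* included, was 0.16 in the f/f livers. In the LKO-labelled livers it was 0.07, so the 2 measures differ in direction. None of the 8 genes of interest was listed at 0 in any library. Between 10587 and 10706 genes exceeded 1 FPKM in a library.

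ErbB receptors are receptor tyrosine kinases that bind EGF, TGFα and related ligands, or neuregulins, and signal as dimers through RAS and ERK. EGFR and MET are the main mitogen receptors of hepatocytes and act in liver regeneration. ERBB3 has little kinase activity of its own and signals with a partner. ERRFI1 (also called MIG6) binds active EGFR and blocks it. FGFR4 with β-Klotho (KLB) receives FGF15 from the intestine and restrains bile acid synthesis, and β-Klotho with FGFR1 receives FGF21. LIFR pairs with gp130 (*Il6st*) and signals through JAK and STAT3.

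The transcripts covered a wide range of abundance, and their order changed little among the libraries. *Errfi1* was the most abundant, with a mean over the 8 libraries of 435 FPKM, which lay above 98.5% of the genes tested. *Egfr* followed with 77.5, *Lifr* with 47.2, *Erbb3* with 24.9, *Met* with 18.4, *Fgfr4* with 10.5, *Klb* with 7.77 and *Erbb2* with 0.162 FPKM. Each gene stood above the next in all 8 libraries, except that *Lifr* stood above *Erbb3* in 7. The ranges over libraries of *Egfr* and *Lifr*, of *Lifr* and *Erbb3*, of *Erbb3* and *Met*, and of *Fgfr4* and *Klb* overlapped.

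**Figure D1:**
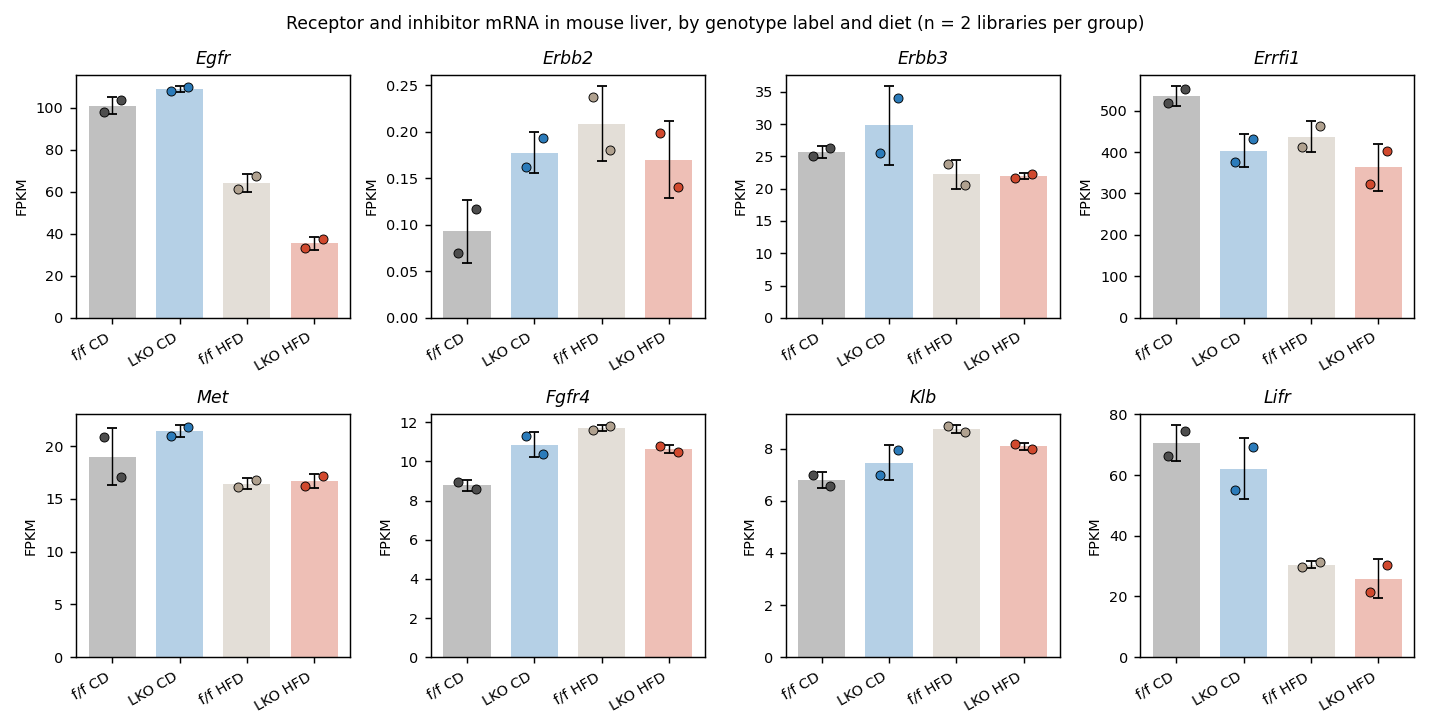
FPKM (y axis, linear, from 0) of the 8 genes in the 4 groups of liver libraries. Points are single libraries, bars are means and error bars are SD (n = 2). *Egfr* lies at 98.3 to 110 on CD and at 33.3 to 67.4 on HFD, *Lifr* at 54.9 to 74.6 on CD and at 21.3 to 31.4 on HFD.

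*Egfr* was lower on HFD than on CD under both genotype labels, and lowest in the HFD-fed LKO livers. It had 98.3 and 104 FPKM in the CD-fed f/f libraries and 108 and 110 in the CD-fed LKO libraries. On HFD it had 61.4 and 67.4 FPKM in the f/f libraries and 33.3 and 37.6 in the LKO libraries. All 4 HFD libraries were below all 4 CD libraries, and on HFD both LKO libraries were below both f/f libraries. The mean of the HFD-fed LKO livers was 35.1% of that of the CD-fed f/f livers. The gene lies on chromosome 11 (GRCm38, 16752203 to 16918158, plus strand), and its longest coding transcript in GENCODE M21 has 28 exons.

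In the limma fit of all tested genes, *Egfr* fell on HFD by 1.54 on the log2 scale in the LKO-labelled livers (SE 0.08, adjusted p = 0.00431), and 0 of the 11634 genes had a smaller p in that comparison. In the f/f livers it fell by 0.62 (SE 0.08, adjusted p = 0.0373). Between genotypes on HFD the log2 fold change was −0.83 (SE 0.08, 95% interval −1.03 to −0.63, unadjusted p = 2.7e-05), and the adjusted p of 0.0525 missed the threshold. 5 genes had a smaller p there and 96 had a lower log2 fold change. On CD the same contrast gave 0.09 (95% interval −0.11 to 0.29, adjusted p = 0.683), although both LKO libraries were above both f/f libraries. The LKO effect was thus lower on HFD than on CD by 0.92 (SE 0.12, unadjusted p = 0.000125), with an adjusted p of 0.229.

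*Lifr*, the other gene with a large decline on HFD, did not separate by genotype. It had 66.2 and 74.6 FPKM in the CD-fed f/f libraries, 54.9 and 69.2 in the CD-fed LKO libraries, 29.6 and 31.4 in the HFD-fed f/f libraries, and 21.3 and 30.5 in the HFD-fed LKO libraries. Every HFD library was below every CD library, and the 2 genotypes overlapped on each diet. It fell on HFD by 1.14 on the log2 scale in the f/f livers (SE 0.17, adjusted p = 0.0404) and by 1.20 in the LKO-labelled livers (SE 0.17, adjusted p = 0.0251). Between genotypes the log2 fold change was −0.23 on HFD (95% interval −0.64 to 0.18) and −0.17 on CD (95% interval −0.58 to 0.24), and the adjusted p-values were 0.718 and 0.71. Without the first HFD-fed LKO library the contrast on HFD was 0.01, and without the second it was −0.48. The difference between those contrasts was −0.06 (95% interval −0.64 to 0.52). *Lifr* lies on chromosome 15 (GRCm38, 7090614 to 7197489, plus strand).

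Apart from that of *Egfr* in the LKO-labelled livers, these diet calls were lost when any 1 library was left out. In the f/f livers, 2 of the 7 tested members (*Egfr* and *Lifr*) passed an adjusted p of 0.05 on HFD, where 1.33% of all tested genes did. With any 1 of the 8 libraries left out, neither did, at log2 fold changes of −0.69 to −0.55 for *Egfr* and −1.22 to −1.05 for *Lifr*. In the LKO-labelled livers the same 2 of 7 passed, where 3.02% of all tested genes did. Only *Egfr* stayed under 0.05 with each library left out, and *Lifr* then had adjusted p-values of 0.0621 to 0.147. With the 4 libraries of the comparison alone, neither gene passed in either genotype. The 2 diet comparisons share no library.

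At an unadjusted p under 0.05, 4 of 7 members differed with diet in the f/f livers (*Egfr*, *Lifr*, *Fgfr4* and *Klb*, background 19.2% of tested genes) and 4 of 7 in the LKO-labelled livers (*Egfr*, *Lifr*, *Erbb3* and *Met*, background 21.3%). Libraries that did not overlap put 5 members lower on HFD in the f/f livers (27.6% of tested genes) and 2 higher (22.3%). In the LKO-labelled livers they put 4 lower (30.2%) and 1 higher (22.9%). *Egfr*, *Lifr*, *Erbb3* and *Met* were lower on HFD under both genotype labels.

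The proximal promoters of *Egfr* and *Lifr*, the 2 genes that fell on HFD, and of *Errfi1*, the most abundant, are shown here as the 250 bases before a RefSeq transcription start (GRCm38.p6, plus strand, 5′ to 3′). The 9 windows found belong to 7 of the 8 genes, and none was found for *Erbb3*. *Lifr* and *Errfi1* have 2 windows each, and the one with more G and C is printed. Capitals mark AGGTCA on either strand (as TGACCT on the strand shown), the half-site bound by RORα and by many other nuclear receptors, TGACGTCA, the cyclic AMP response element, and TATAAA.
Egfr, chr11:16751953-16752202: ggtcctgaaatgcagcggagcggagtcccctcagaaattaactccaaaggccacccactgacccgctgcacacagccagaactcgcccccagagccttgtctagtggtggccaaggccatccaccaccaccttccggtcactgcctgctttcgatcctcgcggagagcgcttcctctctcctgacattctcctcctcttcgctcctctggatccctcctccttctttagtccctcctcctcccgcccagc
Lifr, chr15:7129322-7129571: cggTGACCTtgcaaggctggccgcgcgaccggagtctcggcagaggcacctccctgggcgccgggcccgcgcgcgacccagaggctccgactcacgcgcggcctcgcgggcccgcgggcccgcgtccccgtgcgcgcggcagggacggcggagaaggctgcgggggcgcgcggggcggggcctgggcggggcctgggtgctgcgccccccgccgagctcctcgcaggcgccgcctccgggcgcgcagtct
Errfi1, chr4:150854820-150855069: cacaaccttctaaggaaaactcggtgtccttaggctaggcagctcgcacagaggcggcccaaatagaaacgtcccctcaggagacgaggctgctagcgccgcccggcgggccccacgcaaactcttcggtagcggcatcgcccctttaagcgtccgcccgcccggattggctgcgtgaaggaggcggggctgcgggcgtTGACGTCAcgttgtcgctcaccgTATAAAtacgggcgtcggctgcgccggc
The *Egfr* window held none of the 3 motifs. GGGCGG, the GC box, had 1 copy in the *Egfr* window, 9 bases before the start on the reverse strand, 2 copies in the printed *Lifr* window and 3 in the printed *Errfi1* window. The printed *Lifr* window lies inside the annotated span of the gene, before an internal RefSeq start, and has 82.4% G and C against 60.8% for *Egfr*. It held 1 AGGTCA on the reverse strand, 247 bases before the start, preceded by A as AAGGTCA. The other *Lifr* window (chr15:7140292-7140541, 50.8% G and C) also lies inside the gene's span and held none of the 3 motifs. A window before the annotated span of *Lifr* was not among the 9. The printed *Errfi1* window also lies inside its gene's span, and it held TGACGTCA beginning 51 bases and TATAAA beginning 28 bases before the start. The other *Errfi1* window (chr4:150853546-150853795, 38.0% G and C) lies before the annotated gene and held none of the 3 motifs and no GC box. Among all 32851 windows of this length, 14.0% held AGGTCA, 4.08% AAGGTCA, 1.55% TGACGTCA, 12.4% TATAAA and 32.7% GGGCGG on either strand, overlaps between motifs included. These matches describe letters, and binding was not measured here.

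*Erbb3*, the neuregulin receptor, had 25.0 and 26.3 FPKM in the CD-fed f/f libraries, 25.5 and 34.1 in the CD-fed LKO libraries, 23.8 and 20.6 in the HFD-fed f/f libraries and 21.6 and 22.3 in the HFD-fed LKO libraries. The genotypes overlapped on both diets, and the second CD-fed LKO library stood above the rest. On HFD the genotype contrast was 0.00 (95% interval −0.30 to 0.31), and its sign turned under other scalings. The difference between diets was −0.38 in the LKO-labelled livers (SE 0.13, unadjusted p = 0.0213, adjusted p = 0.156, range −0.56 to −0.20 over the alternatives) and −0.17 in the f/f livers (adjusted p = 0.518).

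*Erbb2* had 0.0692 and 0.117 FPKM in the CD-fed f/f libraries, 0.162 and 0.193 in the CD-fed LKO libraries, 0.237 and 0.18 in the HFD-fed f/f libraries and 0.199 and 0.141 in the HFD-fed LKO libraries. At these levels it was not tested. *Erbb2* overlaps *Mien1* on the opposite strand, which had 24.2 to 33.0 FPKM, and the library kit did not mark strand, so reads of the overlap cannot be assigned. *Erbb4*, the remaining ErbB receptor, had 0.168 to 0.55 FPKM and was not tested either. The ErbB receptor transcripts of these livers were thus mainly *Egfr* and *Erbb3*, and the ratio of their FPKM within a library was 3.94 and 3.96 in the CD-fed f/f livers and 4.22 and 3.23 in the CD-fed LKO livers. On HFD it was 2.58 and 3.27 in the f/f livers and 1.54 and 1.69 in the LKO livers. The ratio was lowest in the 2 HFD-fed LKO libraries.

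*Errfi1*, the inhibitor of EGFR, was the member whose genotype contrast on CD had the largest size. It had 518 and 552 FPKM in the CD-fed f/f libraries, 376 and 431 in the CD-fed LKO libraries, 411 and 463 in the HFD-fed f/f libraries and 323 and 403 in the HFD-fed LKO libraries. Both LKO libraries were below both f/f libraries on each diet. The log2 fold change between genotypes was −0.46 on CD (SE 0.12, unadjusted p = 0.00811, adjusted p = 0.254) and −0.27 on HFD (SE 0.12, unadjusted p = 0.0698, adjusted p = 0.561), the latter from −0.40 to −0.13 over the alternatives. The difference between them was 0.19 (95% interval −0.22 to 0.61). Diet gave −0.19 in the f/f livers (adjusted p = 0.457) and 0.01 in the LKO-labelled livers, where the sign turned without normalization (−0.16). *Errfi1* lies on chromosome 4 (GRCm38, 150853919 to 150868892, plus strand) and has 4 exons.

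Inhibitor and receptor transcripts therefore stood in different proportions in the 4 groups. The FPKM of *Errfi1* divided by that of *Egfr* was 5.27 and 5.31 in the CD-fed f/f livers, 3.49 and 3.91 in the CD-fed LKO livers, 6.69 and 6.86 in the HFD-fed f/f livers and 9.70 and 10.7 in the HFD-fed LKO livers. No library of one group overlapped those of another. The direction between genotypes differed by diet, lower with the LKO label on CD and higher on HFD. This ratio was computed within a library, so a scale factor shared by its genes cancels. It was chosen after the values were seen and was not tested.

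**Figure D2:**
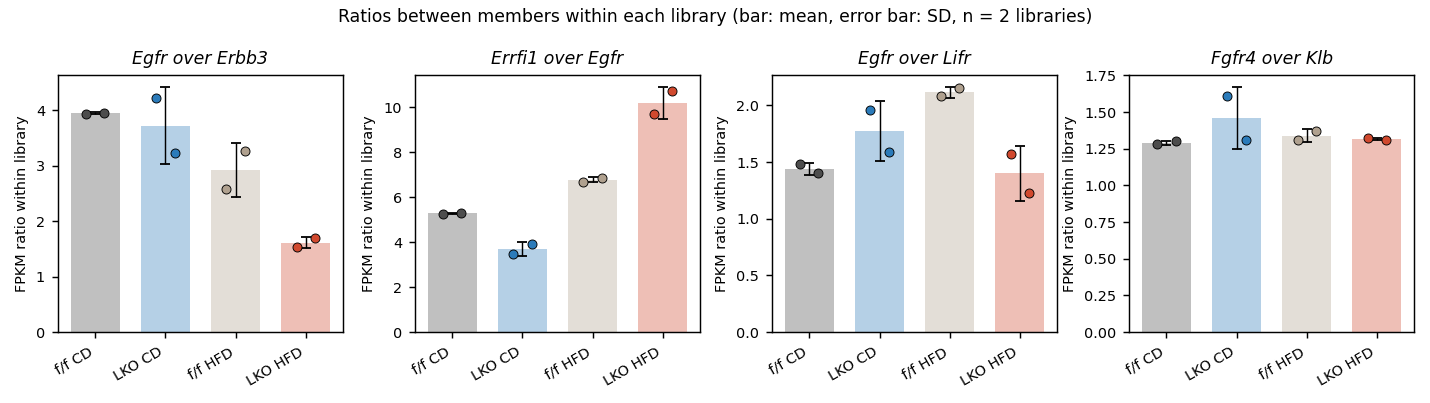
Ratios of FPKM between pairs of the genes within each library (y axes linear, from 0). Points are single libraries, bars are means and error bars are SD (n = 2). *Errfi1* over *Egfr* is 3.49 to 3.91 in the CD-fed LKO livers and 9.70 to 10.7 in the HFD-fed LKO livers, while *Fgfr4* over *Klb* stays between 1.28 and 1.61 in all 8 libraries.

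*Met*, the receptor of hepatocyte growth factor, had 20.9 and 17.1 FPKM in the CD-fed f/f libraries, 21.0 and 21.8 in the CD-fed LKO libraries, 16.1 and 16.8 in the HFD-fed f/f libraries and 16.2 and 17.2 in the HFD-fed LKO libraries. The genotypes overlapped on HFD, where the log2 fold change was 0.04 (95% interval −0.19 to 0.27). On CD it was 0.20 (unadjusted p = 0.0826). The difference between diets was −0.32 in the LKO-labelled livers (SE 0.09, unadjusted p = 0.0143, adjusted p = 0.129) and −0.16 in the f/f livers. *Egfr* over *Met* went from means of 5.40 (CD-fed f/f) and 5.08 (CD-fed LKO) to 3.92 (HFD-fed f/f) and 2.12 (HFD-fed LKO), and the 2 HFD-fed LKO libraries had the lowest ratios.

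*Fgfr4* and *Klb*, the 2 parts of the hepatocyte FGF15 receptor, were higher on HFD than on CD in the f/f livers, opposite to *Egfr* and *Lifr*. *Fgfr4* had 8.97 and 8.58 FPKM in the CD-fed f/f libraries, 11.3 and 10.4 in the CD-fed LKO libraries, 11.6 and 11.8 in the HFD-fed f/f libraries and 10.8 and 10.5 in the HFD-fed LKO libraries. The CD-fed f/f libraries were the 2 lowest. The diet contrast in the f/f livers was 0.40 (SE 0.07, unadjusted p = 0.000826), with an adjusted p of 0.0561, and in the LKO-labelled livers it was 0.02 (95% interval −0.15 to 0.19). The genotype contrast was 0.28 on CD (SE 0.07, unadjusted p = 0.00549, adjusted p = 0.232) and −0.10 on HFD (adjusted p = 0.712). The difference between these contrasts was −0.38 (SE 0.10, unadjusted p = 0.00703, adjusted p = 0.558).

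*Klb* had 7.00 and 6.58 FPKM in the CD-fed f/f libraries, 7.00 and 7.93 in the CD-fed LKO libraries, 8.85 and 8.65 in the HFD-fed f/f libraries and 8.19 and 7.98 in the HFD-fed LKO libraries. The 2 HFD-fed f/f libraries were the highest. Its diet contrast was 0.35 in the f/f livers (SE 0.08, unadjusted p = 0.00387, adjusted p = 0.0926) and 0.14 in the LKO-labelled livers (adjusted p = 0.378). The genotype contrast was 0.13 on CD, where 2 libraries of different genotype were equal to 3 digits, and −0.09 on HFD, and neither passed (adjusted p = 0.557 and 0.78). The ratio of *Fgfr4* to *Klb* stayed between 1.28 and 1.61.

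Counted over the genotype comparisons, 0 of 7 members passed an adjusted p of 0.05 by limma on HFD (0.043% of tested genes, 5 in number), 0 of 7 on CD (0.0172%, 2 genes) and 0 of 7 in the difference between the diets (0.0344%, 4 genes). At an unadjusted p under 0.05 there was 1 member on HFD (*Egfr*, background 9.58%), 2 on CD (*Errfi1* and *Fgfr4*, background 12.3%) and 2 in the difference (*Egfr* and *Fgfr4*, background 8.35%). Both LKO libraries were below both f/f libraries on HFD for 4 members (23% of tested genes) and above for 0 (19.1%). On CD they were below for 1 (22.6%) and above for 4 (20.8%). The *Egfr* call on HFD lay at the threshold, since its adjusted p ranged from 0.0255 to 0.428 over 17 alternative settings and was under 0.05 in 6 of them, none of which left out a library.

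**Figure D3:**
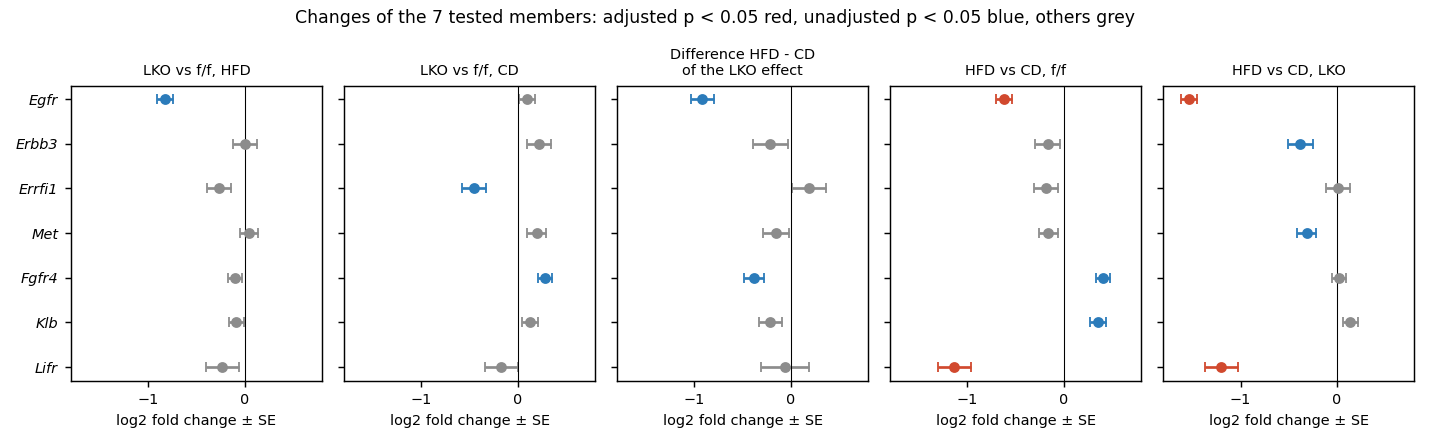
Log2 fold changes (x axis, log2(FPKM + 1) scale after quantile normalization, error bars SE from limma) of the 7 tested genes (y axis) in 5 comparisons. Red marks an adjusted p under 0.05, blue an unadjusted p under 0.05 and grey the rest. *Egfr* is at −0.83 between genotypes on HFD and at 0.09 on CD, and *Egfr* and *Lifr* are the 2 red points in each diet comparison.

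Among 11 ErbB ligands, 3 were expressed highly enough to be tested. *Tgfa*, an EGFR ligand, had 3.95 to 4.82 FPKM without a difference past an unadjusted p of 0.05 in any comparison. *Nrg4*, a neuregulin that binds ERBB4, had 9.28 and 6.98 FPKM in the CD-fed f/f libraries, 3.74 and 5.86 in the CD-fed LKO libraries, 4.03 and 4.92 in the HFD-fed f/f libraries and 2.86 and 2.75 in the HFD-fed LKO libraries. The CD-fed f/f livers were highest and the HFD-fed LKO livers lowest. Its log2 fold change was −0.66 between genotypes on CD, −0.52 on HFD, −0.71 between diets in the f/f livers and −0.56 in the LKO-labelled livers, with unadjusted p-values of 0.0113 to 0.0412 and adjusted p-values of 0.139 to 0.49. Over the alternatives the contrast on CD ranged from −0.93 to −0.39 and that between diets in the LKO-labelled livers from −0.84 to −0.29. *Btc*, another EGFR ligand, had 0.591 to 0.901 FPKM outside the HFD-fed LKO livers and 1.14 and 1.40 within them (unadjusted p = 0.0333 against f/f on HFD, adjusted p = 0.468, log2 fold change 0.40 and from 0.29 to 0.73 over the alternatives). *Egf*, *Hbegf* and *Nrg1* were below 0.3 FPKM in all libraries, and *Areg* and *Nrg3* were listed at 0 in all. In total, 1 ligand was higher and 1 lower at an unadjusted p under 0.05 in LKO-labelled livers on HFD, where 9.58% of all tested genes passed.

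The proteases and cofactors that release ErbB ligands were measured in the same list as the receptors. *Adam17* had 5.12 and 5.14 FPKM in the CD-fed f/f, 5.17 and 5.14 in the CD-fed LKO, 4.23 and 4.10 in the HFD-fed f/f and 4.87 and 4.91 in the HFD-fed LKO libraries. The 2 HFD-fed f/f libraries were the lowest, and the genotype contrast on HFD was 0.20 (unadjusted p = 0.0265, adjusted p = 0.436). *Rhbdf1* and *Rhbdf2*, which are needed for ADAM17 to mature, gave 0.41 each between genotypes on CD (adjusted p = 0.336 and 0.288). Of the 4 tested genes of this list that are not members, 0 passed an adjusted p of 0.05 by limma in any of the 5 comparisons. At an unadjusted p under 0.05, 0 to 2 did, where 8.35% to 21.3% of all tested genes did.

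Of 15 listed feedback inhibitors of receptor signaling, 12 besides *Errfi1* were tested. By limma 0 passed the adjusted threshold in any comparison, and at an unadjusted p under 0.05 between 1 and 4 did, depending on the comparison, where 8.35% to 21.3% of all tested genes did. *Socs2*, an inhibitor of cytokine and growth hormone signaling, had 4.5 and 12.9 FPKM in the HFD-fed f/f and 1.9 and 2.24 in the HFD-fed LKO libraries (log2 fold change −1.51, adjusted p = 0.397). On CD it had 1.85 and 5.62 FPKM in the f/f and 4.11 and 3.17 in the LKO libraries, so that 1 CD-fed f/f library was as low as the HFD-fed LKO libraries. The contrast on HFD was −0.83 without the second HFD-fed f/f library and ranged from −2.18 to −0.83 over the alternatives. *Spry4*, a Sprouty inhibitor of RAS signaling, had 2.27 and 1.01 FPKM in the CD-fed f/f libraries, 2.08 and 2.10 in the CD-fed LKO, 4.77 and 5.31 in the HFD-fed f/f and 3.19 and 6.03 in the HFD-fed LKO libraries. Every HFD library was above every CD library. The diet contrast was 1.24 in the f/f livers (unadjusted p = 0.00403, adjusted p = 0.0951) and 0.84 in the LKO-labelled livers (adjusted p = 0.166, range 0.47 to 1.21 over the alternatives). *Lrig1*, which promotes degradation of ErbB receptors, had 4.39 to 6.30 FPKM. *Socs3*, the feedback inhibitor of gp130 receptors, had 1.55 and 1.97 FPKM in the CD-fed f/f and 4.10 and 3.24 in the CD-fed LKO livers (log2 fold change 0.72, adjusted p = 0.247).

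Downstream of the receptors, 17 genes for adaptors and for the RAS and ERK kinases were all tested. *Mapk3*, which encodes ERK1, had 12.5 and 12.7 FPKM in the CD-fed f/f, 13.7 in both CD-fed LKO, 17.9 and 17.7 in the HFD-fed f/f and 19.7 and 19.2 in the HFD-fed LKO libraries. It rose on HFD by 0.49 in the f/f livers (SE 0.06, adjusted p = 0.0343) and by 0.49 in the LKO-labelled livers (SE 0.06, adjusted p = 0.0194). It was the only gene of the list past the adjusted threshold in any comparison, with 1 of 17 under each genotype label. Of all tested genes, 1.33% passed in the f/f and 3.02% in the LKO-labelled livers. With each library left out, both *Mapk3* calls were lost. The log2 fold changes were then 0.48 to 0.50 in the f/f and 0.46 to 0.53 in the LKO-labelled livers. The medians of the list were −0.02 in the f/f and −0.04 in the LKO-labelled livers, against 0.01 over all genes in each.

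Among 12 tested genes that respond to growth factors, *Dusp1* was the one past the adjusted threshold, between diets under both genotype labels. Of all tested genes, 1.33% passed in the f/f and 3.02% in the LKO-labelled livers. *Dusp1*, a phosphatase of MAP kinases, had 21.0 and 19.3 FPKM in the CD-fed f/f libraries, 28.2 and 28.8 in the CD-fed LKO, 6.24 and 8.48 in the HFD-fed f/f and 7.10 and 7.02 in the HFD-fed LKO libraries. All HFD libraries were below all CD libraries. It fell on HFD by 1.32 in the f/f livers (SE 0.13, adjusted p = 0.0197) and by 1.84 in the LKO-labelled livers (SE 0.13, adjusted p = 0.00681). The first call was lost without any 1 of the 4 CD libraries or either HFD-fed LKO library (adjusted p of at most 0.126), and the second without the second HFD-fed LKO library (adjusted p = 0.0564). The log2 medians of the list were −0.22 and −0.18. *Ccnd1*, the cyclin that carries hepatocytes into the cell cycle, had 4.30 and 7.45 FPKM in the CD-fed f/f and 1.75 and 2.45 in the HFD-fed f/f livers (−1.10, adjusted p = 0.0681). *Egr1*, an immediate early gene, had 3.75 and 1.64 FPKM in the HFD-fed f/f and 4.07 and 5.68 in the HFD-fed LKO livers (0.73, adjusted p = 0.467), and this contrast ranged from 0.31 to 1.14 with 1 HFD-fed f/f library or the other left out. *Dusp6*, a target of ERK, had 9.12 to 15.8 FPKM and no diet or genotype contrast past an unadjusted p of 0.05.

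The ligands of MET and of its relative MST1R were followed next. *Hgf*, which stellate and endothelial cells make, had 0.722 to 2.34 FPKM, and *Hgfac*, the protease that activates it, had 83.4 to 102 FPKM. *Mst1*, a secreted ligand of MST1R that hepatocytes make, had 51.1 and 46.5 FPKM in the CD-fed f/f, 57.1 and 56.8 in the CD-fed LKO, 47.8 and 49.7 in the HFD-fed f/f and 45.0 and 44.5 in the HFD-fed LKO libraries. Its diet contrast in the LKO-labelled livers was −0.30 (unadjusted p = 0.00265, adjusted p = 0.0617). *Mst1r* itself was at 0.0162 to 0.0945 FPKM. Of the 7 tested genes of this list besides *Met*, 0 passed an adjusted p of 0.05 by limma in any comparison. At an unadjusted p under 0.05, 1 to 3 did, where 8.35% to 21.3% of all tested genes did.

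In the FGF list, *Fgfr1* fell on HFD in the LKO-labelled livers. *Fgfr1*, the FGF21 receptor that pairs with β-Klotho, had 4.6 and 3.4 FPKM in the CD-fed f/f libraries, 4.61 and 7.10 in the CD-fed LKO, 1.45 and 1.73 in the HFD-fed f/f and 1.64 and 2.04 in the HFD-fed LKO libraries. All HFD libraries were below all CD libraries. It fell on HFD by 1.24 in the LKO-labelled livers (SE 0.21, adjusted p = 0.0357), a call lost with any 1 library left out (adjusted p = 0.0641 to 0.202). In the f/f livers the diet contrast was −0.93 (adjusted p = 0.0888). *Fgf21*, a hormone that the liver secretes, had 1.5 and 1.32 FPKM in the CD-fed f/f, 4.70 and 3.60 in the CD-fed LKO, 2.54 and 1.59 in the HFD-fed f/f and 5.14 and 3.05 in the HFD-fed LKO libraries. Both LKO libraries were above both f/f libraries on each diet, with log2 fold changes of 1.05 on CD (adjusted p = 0.204) and 0.73 on HFD (adjusted p = 0.382, range 0.43 to 1.04 over the alternatives).

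*Cyp7a1*, the rate-limiting enzyme of bile acid synthesis and a gene that FGFR4 restrains, had 66.3 and 100 FPKM in the CD-fed f/f, 30.3 and 37.8 in the CD-fed LKO, 70.7 and 77.6 in the HFD-fed f/f and 46.2 and 31.1 in the HFD-fed LKO libraries. Both LKO libraries were lower on each diet, by −1.23 on CD (adjusted p = 0.196) and −0.94 on HFD (adjusted p = 0.328). *Fgf15* was listed at 0 in all 8 libraries. *Fgf1* had 36.7 to 49.5 FPKM on CD and 51.4 to 67.8 on HFD, with adjusted p-values of 0.0888 in the f/f and 0.0556 in the LKO-labelled livers. *Cyp8b1*, another bile acid enzyme, had 228 and 285 FPKM in the CD-fed f/f, 194 and 261 in the CD-fed LKO, 158 and 110 in the HFD-fed f/f and 233 and 166 in the HFD-fed LKO livers. The 2 HFD-fed f/f libraries were the lowest, and the diet contrast in the f/f livers was −0.88 (unadjusted p = 0.0108, adjusted p = 0.138). The genotype contrast on HFD was 0.61 (adjusted p = 0.512) and ranged from 0.33 to 0.89 over the alternatives. *Fgfr2* and *Fgfr3* had 5.80 to 9.88 and 6.12 to 13 FPKM. *Fgfr3* was at 0.54 between genotypes on CD and at 0.57 between diets in the f/f livers. The difference of its LKO effect between HFD and CD was −0.75. By limma these had unadjusted p-values of 0.0303 to 0.0391 and adjusted p-values of 0.209 to 0.576. Of the 9 tested genes of the list that are not members, 1 passed the adjusted threshold, *Fgfr1* between diets in the LKO-labelled livers. In that comparison 3.02% of all tested genes passed. At an unadjusted p under 0.05, 1 of the 9 was higher and 2 were lower there, where 21.3% of all tested genes passed.

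Of the receptors that signal with LIFR or share gp130 with it, *Il6st*, which encodes gp130, had 18 to 24.3 FPKM, and its diet contrasts were −0.17 and −0.18 (adjusted p = 0.409 and 0.357). *Il6ra*, the IL-6 receptor, had 18.6 and 18.7 FPKM in the CD-fed f/f libraries, 8.18 and 9.39 in the CD-fed LKO, 19.2 and 15.7 in the HFD-fed f/f and 15.0 and 17.8 in the HFD-fed LKO libraries. The 2 CD-fed LKO libraries stood below all others. The genotype contrast on CD was −1.0 (SE 0.12, unadjusted p = 7.9e-05, adjusted p = 0.0838), and *Il6ra* rose on HFD by 0.87 in the LKO-labelled livers (SE 0.12, adjusted p = 0.0223). That call was lost without any 1 of the CD-fed or HFD-fed LKO libraries or of the CD-fed f/f libraries (adjusted p of at most 0.129). *Ctf1*, a LIFR ligand, had 2.33 to 3.06 FPKM outside the HFD-fed LKO livers and 4.28 and 3.66 within them (adjusted p = 0.0737 against the CD-fed LKO livers). *Lif* and *Osm* were below 0.05 FPKM in every library, *Il6* was listed at 0 in all, and *Osmr* had 0.408 to 1.05 FPKM.

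**Figure D4:**
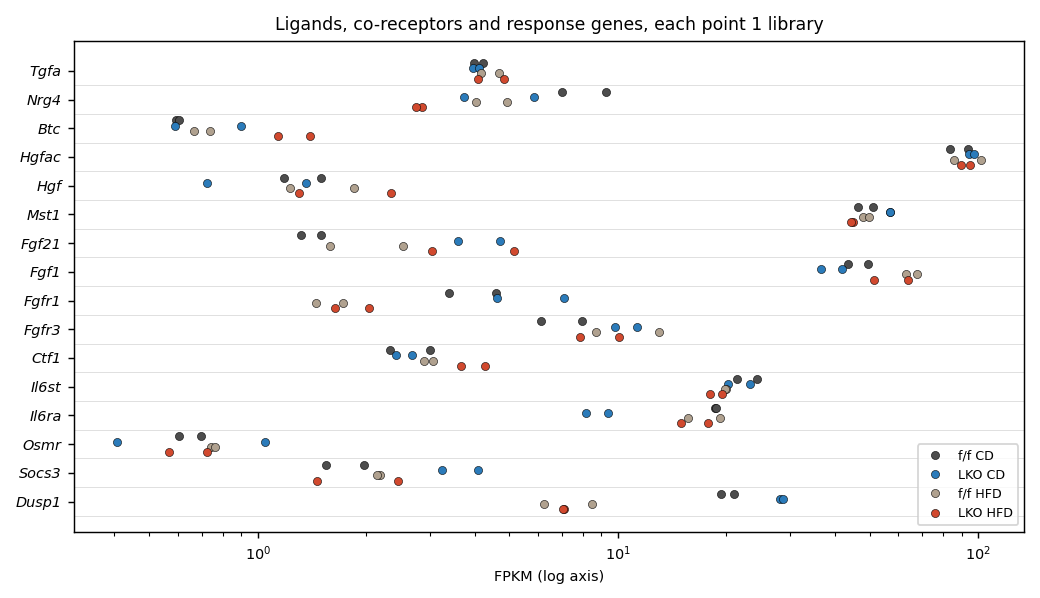
FPKM (x axis, log scale) of ligands, co-receptors and response genes (y axis) of the 8 genes, with 1 point per library coloured by group. *Dusp1* lies at 6.24 to 8.48 on HFD and at 19.3 to 28.8 on CD, and *Il6ra* at 8.18 and 9.39 in the CD-fed LKO livers and at 15.0 to 19.2 elsewhere.

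Other receptors of the hepatocyte surface served as a comparison. *Ghr*, the growth hormone receptor, had 195 to 252 FPKM, and *Insr*, the insulin receptor, had 14.2 to 18.3. Their diet contrasts were −0.19 and −0.21 in the f/f livers and 0.03 and −0.13 in the LKO-labelled livers, all with adjusted p above the threshold (0.205 to 0.886). *Asgr1*, the asialoglycoprotein receptor of hepatocytes, had diet contrasts of 0.24 and 0.03. Of the 8 tested genes of this list, 0 passed the adjusted threshold by limma in any comparison. At an unadjusted p under 0.05, 1 to 3 did, where 8.35% to 21.3% of all tested genes did. The medians of its diet contrasts were 0.13 in the f/f and −0.00 in the LKO-labelled livers.

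Markers of other liver cells moved with some of these contrasts. In bulk liver, fewer cells of a type and less RNA per cell cannot be told apart. The summed FPKM of 8 Kupffer cell and macrophage markers was 63.9 to 77.1 in the HFD-fed f/f and 79.6 to 111 in the HFD-fed LKO libraries, beside 82.8 to 108 and 79.9 to 83.5 in the CD-fed f/f and LKO libraries. That of 8 stellate cell markers was 38.7 to 61.3 on CD and 70.2 to 95.3 on HFD. Of these 8, 3 were above 1 FPKM in all libraries. At an unadjusted p under 0.05 by limma, 1 was higher on HFD in the f/f livers (19.2% of all tested genes passed). In the LKO-labelled livers 3 were higher (21.3%). Under either label 0 were lower, and 0 passed the adjusted threshold. The 8 endothelial markers summed to 44.0 to 67.6, the 7 cholangiocyte markers to 17.9 to 31.5, the 6 lymphocyte markers to 1.09 to 2.32 and the 5 adipocyte markers to 6.63 to 15.9, highest in the HFD-fed LKO libraries. Of the hepatocyte markers, *Cps1* was at −0.46 between genotypes on HFD (unadjusted p = 0.00578, adjusted p = 0.31). In that comparison 2 of the 10 were lower and 0 higher at an unadjusted p under 0.05, where 9.58% of all tested genes passed. The median of the list was −0.04. *Tat* fell on HFD by 1.53 in the f/f livers (adjusted p = 0.0266). *Tat* was the exception of its list there. At an unadjusted p under 0.05, 4 of the 10 hepatocyte markers were higher on HFD in the f/f livers and 1 was lower. Of all tested genes, 19.2% passed there. The 4 were *Ttr*, *Apob*, *Hnf4a* and *Asgr1*, with normalized log2 fold changes of 0.24 to 0.42, none past the adjusted threshold. For *Asgr1* the value ranged from 0.11 to 0.37 over the alternatives. The median of the list was 0.16, whereas the summed FPKM without *Alb* was lower on HFD. In the LKO-labelled livers 3 were higher and 2 lower on HFD, where 21.3% of all tested genes passed, and the median was 0.07. The part of these cell types in the values of *Egfr*, *Lifr* and the other genes was not tested.

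By Pearson's r of log2 values over the 8 libraries, each tested member was compared with 9838 genes above 1 FPKM in all libraries, as a description in which libraries of a group share genotype and diet. The genes most like *Egfr* were *Rpl12* (r = 0.98), *Got1* (0.98) and *Itpr1* (0.98), and those most like *Lifr* were *Uggt1* (0.99), *Tmem50a* (0.98) and *Isyna1* (0.98). *Erbb3* was closest to *Mfsd4a*, *Chid1* and *Mrpl38*. Among the genes closest to *Errfi1* were *Hspd1* and *Manf*, and among those closest to *Met* were *Map7d1* and *Mmp15*, with r of 0.96 to 0.98. *Fgfr4* was closest to *Zfp935*, *Dus1l* and *Nfia* and *Klb* to *Usp3*, *Cldn5* and *Psmg4*, with r of 0.97 to 0.99. Among the members, *Egfr* and *Lifr* had r = 0.91, *Fgfr4* and *Klb* 0.82, and *Lifr* and *Klb* −0.82.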

How the data were processed

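Poly(A) RNA was sequenced in 8 pooled liver libraries, 2 per group, grouped by their labels. The deposited values are FPKM, which the authors made by trimming with cutadapt 1.0, alignment to GRCm38 with TopHat2 2.0.7 and estimation with Cufflinks (version not given in the sources used here). FPKM carries no read counts, so depth per gene is unknown and no counting intervals are given. Of 38283 gene identifiers, 36341 were matched to a symbol. A gene entered the tests when any library exceeded 1 FPKM. Values were taken as log2(FPKM + 1) and then quantile normalized. Fold changes on this scale understate those of low genes.

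The study's permutation procedure was not run, and limma 3.58.1 in R 4.3.3 was used in its place, with the trend option, a single fit of the 4 groups and p-values adjusted by Benjamini-Hochberg over 11634 genes in each of 5 comparisons. The fit had 4 residual and 2.8 prior degrees of freedom. An exact permutation test of 2 libraries against 2 cannot go below p = 0.333 and was not used. The p-values measure the spread between pools.

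The 8 genes and the gene lists were chosen with earlier results of these data known. Named from the lists are the genes acting directly with a member and those past an adjusted p of 0.05, or past an unadjusted p of 0.05 without overlap, with the 5 largest changes per comparison. *Adam17*, *Rhbdf1*, *Rhbdf2*, *Dusp6*, *Asgr1*, *Ghr* and *Insr* were named after their values were seen, as were the ratios. Some genes that this rule or the likeness measure would name are not reported here. Alternatives were no normalization, median centring, a pseudocount of 0.1, FPKM above 1 in all or above 0 in any library, a replicate block, no trend, fits restricted to a comparison's own 4 libraries (not possible for the difference between diets, which needs all groups), omission of each library and, chosen after seeing the data, leaving out genes listed at 0. Figures used matplotlib 3.10.9.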

Additional observations from a re-analysis of the deposited data

Results flagged for a closer look

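For *Egfr*, *Fgfr4* and *Klb*, the LKO-labelled libraries lay on opposite sides of the f/f libraries on the 2 diets, higher on CD and lower on HFD, without overlap on either. Taken singly, 20.8% of tested genes were higher on CD and 23% were lower on HFD without overlap. The share of genes with both was not computed, so how common this pattern is among all genes is not known. The difference of the LKO effect between HFD and CD was −0.92 on the log2 scale for *Egfr* (adjusted p = 0.229 by limma), −0.38 for *Fgfr4* (adjusted p = 0.558) and −0.21 for *Klb* (adjusted p = 0.661), so none of these differences passed the test. For *Klb* on CD, the lowest LKO library and the highest f/f library were equal to 3 digits.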

How the results depend on the processing

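Of 588 member values under alternatives, 549 kept their direction and their side of an unadjusted p of 0.05, 12 passed it, 8 lost it and 19 changed sign. The sign changes were in the contrasts named here, of which the *Lifr* genotype contrast on HFD (−0.23) was the one not near 0. The *Erbb3* genotype contrast on HFD (0.00) became −0.014 without normalization, −0.007 with median centring, and −0.001 with FPKM above 1 in all libraries or with genes listed at 0 left out. The *Errfi1* diet contrast in LKO-labelled livers (0.01) became −0.157, −0.129, −0.003 and −0.003 in the same settings, and that of *Fgfr4* (0.02) became −0.023 without normalization. With each library left out, these ranged from −0.093 to 0.1, from −0.13 to 0.136 and from −0.03 to 0.073, the *Lifr* genotype contrast on HFD from −0.477 to 0.011 and its difference between diets from −0.304 to 0.183. No scaling moved the median of all genes by more than 0.1. Of 1263 values of list genes at an unadjusted p under 0.05, none changed sign and 264 no longer passed it.

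*Egfr* passed the adjusted threshold between genotypes on HFD, giving 1 member called, with median centring, with 0.1 in place of 1 as the pseudocount, with either other filter on low values, with the replicate block, and with genes listed at 0 left out. Members at an unadjusted p under 0.05 there were 2 with FPKM above 1 in all libraries, with the replicate block and with genes listed at 0 left out. With each library left out they numbered 1 to 3 on HFD, 1 to 3 on CD, 2 to 4 in the difference between diets, and 2 to 4 between diets in LKO-labelled livers. Members called between diets in f/f livers fell from 2 to 0 with FPKM above 0 in any library, without the trend, in the comparison alone and with each library left out. In LKO-labelled livers they fell to 1 with FPKM above 0 in any library and with each library left out, and to 0 in the comparison alone. Leaving out libraries reduces the degrees of freedom by construction, and the other causes were not tested.

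Counts over all genes moved more. Between genotypes on HFD, 5 became 24 with FPKM above 0 in any library and 4 to 24 with each library left out. On CD, 2 became 1 with a pseudocount of 0.1, 7 with FPKM above 1 in all, 10 with FPKM above 0 in any, 4 without the trend, 0 in the comparison alone, 9 with genes listed at 0 left out, and 2 to 20 with each library left out. In the difference between diets, 4 became 2 with a pseudocount of 0.1, 0 with FPKM above 1 in all or with genes listed at 0 left out, 19 with FPKM above 0 in any, and 11 to 21 with each library left out. Between diets in f/f livers, 155 became 323, 46, 42, 5 and 297 with FPKM above 1 in all, above 0 in any, no trend, the comparison alone and genes listed at 0 left out, and 12 to 34 with each library left out. In LKO-labelled livers, 351 became 570, 135, 229, 0 and 568 in the same settings, and 19 to 80 with each library left out.

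Same-numbered libraries come from different animals, so their numbers do not pair animals. Whether a number marks libraries handled together is not stated in the labels or the paper. With the replicate block, *Egfr* passed the adjusted threshold between genotypes on HFD, the unadjusted count there became 2, and calls over all genes between diets numbered 34 in f/f and 223 in LKO-labelled livers. It ended the diet calls of *Mapk3* in f/f livers (adjusted p = 0.0535 by limma) and of *Fgfr1* in LKO-labelled livers (adjusted p = 0.0554), and it changed no other member's adjusted call. Deviations of same-numbered libraries correlated at 0.0129 to 0.0351 over the genes above 0 in all libraries and at 0.0644 to 0.145 over all tested genes. FPKM without counts limits what can be said of *Erbb2* and of the ligands below 1 FPKM.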
